A study of Physcomitrium patens with 6 samples.

Results

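In protonemata of the moss Physcomitrium patens, 35 assembled loci had clearly less transcript in the mutant ppdnmt2 than in wild type (WT) after mannitol treatment. They were chosen by their measured level in the 6 libraries, out of 23992 loci in the deposited table. A locus was taken when its mean over the 6 libraries was at least 1 FPKM (fragments normalized for transcript length and library total), all 3 WT values were above 0, and the lowest WT value was at least 1.5 times the highest ppdnmt2 value. Of the 16817 loci that reached the mean of 1 FPKM, the 35 make up 0.208%. The mirrored rule, with the genotypes exchanged, found 79 loci that were higher in ppdnmt2. Since the genotype difference chose the 35 loci, that difference is given for them as a description and supports nothing.

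The WT group held 3 libraries of the Gransden ecotype. The ppdnmt2 group held 3 libraries of the genotype labelled ppdnmt2#8, a single mutant line, so what the mutation does and what else is peculiar to the line cannot be told apart. All plants were 14 days old, grown for 9 days on solid and then for 5 days in liquid BCDAT medium, and all were exposed to 600 mM mannitol for 24 hours. No plants without mannitol were analysed here, so the values do not show whether a locus answers to the treatment. The labels do not say whether replicates were separate cultures, and any p-value then measures the spread between these libraries, which may be technical.

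Protonemata are the branching filaments that a moss spore or a regenerating cell first grows into, made of chloroplast-rich chloronema cells and longer, faster-growing caulonema cells. Mannitol draws water out of the cells and is used to impose osmotic stress. DNMT2 resembles the DNA methyltransferases in sequence, but its known substrates are transfer RNAs, in which it methylates a cytosine. All 35 loci carry MSTRG names, which the transcript assembler StringTie gives to loci it builds from the reads. The sources used here pair none of these names with a gene, so no function, position or sequence is given for any of the 35, and the protonemal label and the targeted gene could not be checked against marker genes. This says little about the 35 in particular, since 16706 of the 16817 loci at or above the mean of 1 FPKM carry MSTRG names.

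The summed FPKM was 659739 to 688866 in the WT and 746107 to 803850 in the ppdnmt2 libraries, and 1656 to 2808 loci were listed at 0 in each. WT replicate 2 stood farthest from the rest, with correlations across loci of 0.942 to 0.969 on the log2 scale, where the other pairs of libraries had 0.968 to 0.981. Read depth is unknown. Among loci under 0.2 FPKM in every library, the commonest ratio to WT replicate 3 was 1.3 in ppdnmt2 replicate 1 and 1.12 in ppdnmt2 replicate 3, and 0.973 in each of the remaining libraries. If the values were scaled to library totals, a larger ratio means that each fragment weighs more and that low values are coarser.

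The 35 loci were mostly weakly expressed. Their WT means ran from 1.62 to 188 FPKM with a median of 3.93, and 21 of them lay under 5 FPKM. In ppdnmt2 their means ran from 0.0348 to 15.4 FPKM with a median of 0.942. Together the 35 loci held 459, 405 and 622 FPKM in WT replicates 1, 2 and 3, against 69.8, 78.7 and 80.7 FPKM in the ppdnmt2 replicates. These sums are under 0.1% of each library's total. The 3 most abundant loci supplied 60.2% to 70.6% of the sum in WT and 38.3% to 40.3% in ppdnmt2. In extracts of whole tissue, fewer cells of a type that makes a transcript and less of the transcript per cell cannot be told apart.

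**Figure D1:**
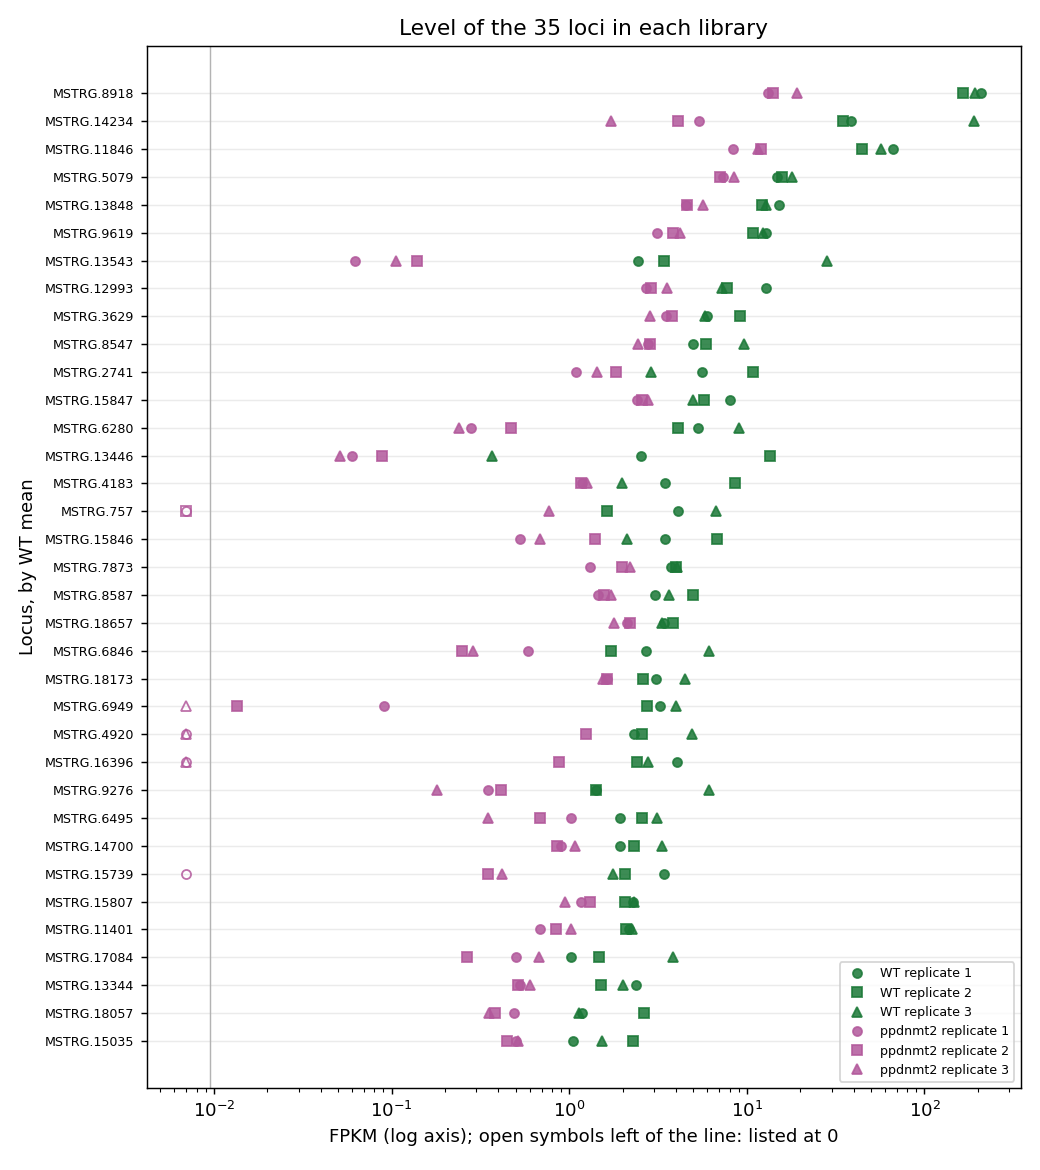
Level of each of the 35 loci in every library, in FPKM on a log axis, with loci ordered by WT mean. Green symbols are WT and purple symbols ppdnmt2 libraries, and open symbols left of the grey line mark values listed at 0. At every locus the green symbols lie right of the purple ones, as the rule requires, and the distance between the WT symbols differs widely from locus to locus.

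The distance between the genotypes varied strongly among the 35 loci. The ratio of the lowest WT to the highest ppdnmt2 value had a median of 2.05 and ran from 1.51 to 30.3, with 16 loci under 2 and 7 loci at 4 or more. By the means, 33 of the 35 were at least 2 times, 17 at least 4 times and 8 at least 10 times as high in WT. Just inside the threshold stood MSTRG.15846, MSTRG.17084 and MSTRG.18657, with ratios of 1.51, 1.52 and 1.53. Just outside it stood MSTRG.14910, MSTRG.8597 and MSTRG.17300, with ratios of 1.49, 1.48 and 1.48. There was no break in the values at the threshold, as 16 loci had a ratio from 1.4 to 1.5 and 8 from 1.5 to 1.6. With a minimum mean of 0.5 FPKM the rule found 49 loci. Without any filter on the mean, 168 loci met the ratio and 133 of them had a mean under 1 FPKM. Of these 133, 100 carry RefSeq identifiers and 33 MSTRG names. Among the 35, 18 had a ppdnmt2 mean under 1 FPKM, so they passed the filter through their WT values.

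**Figure D2:**
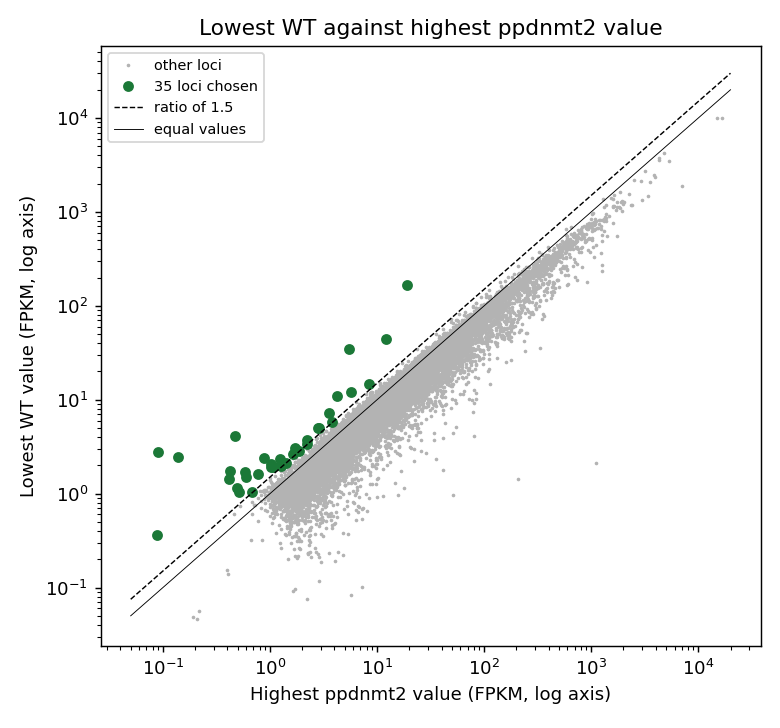
Lowest WT value against highest ppdnmt2 value of each locus with a mean of at least 1 FPKM and both values above 0, in FPKM on log axes. The dashed line marks the ratio of 1.5 and the solid line equal values. The 35 chosen loci, in green, start at the dashed line, and 19 of them stand at a ratio of at least 2 and 7 at a ratio of at least 4.

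For the whole table, limma (two-sided, log2 of FPKM + 1, Benjamini-Hochberg adjustment over 16817 loci) called 7 loci lower in ppdnmt2 at an adjusted p under 0.05, which is 0.0416%, and 10 higher, which is 0.0595%. All 7 lower calls are among the 35 loci. After quantile normalization the calls were 7 lower and 6 higher. In the lower direction, 35 of the 35 loci and 8.07% of all tested loci had a limma p under 0.05 before adjustment. The 3 ppdnmt2 values lay below the 3 WT values at 13% of all tested loci, and at the 35 by the rule. The same values chose the 35 loci and entered the fit, so nothing is read from these counts. The median log2 fold change was -1.27 over the 35 loci and -0.02 over all tested loci. The 28 loci that were not called had adjusted p-values of 0.083 to 0.21 in limma.

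The most abundant of the 35, MSTRG.8918, combined a high level with a wide gap. It stood at 207, 165 and 192 FPKM in WT replicates 1 to 3 and at 13.1, 14.0 and 19.2 FPKM in ppdnmt2 replicates 1 to 3. The lowest WT library was 8.60 times the highest ppdnmt2 library. In limma it had a log2 fold change of -3.54 (SE 0.17, adjusted p = 0.00019). The fold change ran from -3.69 to -3.43 over 13 alternatives, in each of which the call was kept. Here and at the loci below, the alternatives reuse the libraries that chose the locus, so a kept call supports nothing.

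MSTRG.11846 was the next most abundant locus called by limma. Its WT values were 66.5, 44.3 and 56.8 FPKM and its ppdnmt2 values 8.34, 12.0 and 11.6 FPKM. The WT libraries differed among themselves by up to 1.5 times, far less than the 5.24-fold ratio of the genotype means. The median WT range over tested loci above 0 in every library was smaller, at 1.28 times. In limma it had a log2 fold change of -2.28 (SE 0.19, adjusted p = 0.0045). Without ppdnmt2 replicate 3 the adjusted p in limma was 0.052.

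At 3 loci of middle level the WT libraries were within 1.26 times of each other and the ppdnmt2 libraries lay below, as the rule requires. MSTRG.9619 stood at 12.8, 10.9 and 12.4 FPKM in WT and at 3.13, 3.83 and 4.21 FPKM in ppdnmt2 (log2 fold change -1.47, limma adjusted p = 0.0047). MSTRG.13848 stood at 15.2, 12.1 and 12.8 FPKM in WT and at 4.55, 4.61 and 5.68 FPKM in ppdnmt2 (log2 fold change -1.27, limma adjusted p = 0.0095). MSTRG.5079 stood at 14.8, 15.8 and 18.1 FPKM in WT and at 7.34, 7.05 and 8.45 FPKM in ppdnmt2 (log2 fold change -1, limma adjusted p = 0.037). The WT means of the 3 loci were thus 3.23, 2.71 and 2.13 times their ppdnmt2 means. The call of MSTRG.9619 was kept in 13 of 13 alternatives. That of MSTRG.13848 was lost in 5 of 13, without WT replicate 1 and without each ppdnmt2 replicate among them, with adjusted p-values up to 0.099. That of MSTRG.5079 was lost in 8 of 13, with each of the 6 libraries left out in turn, with adjusted p-values up to 0.25.

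A further pair of called loci was near zero in the mutant. MSTRG.6280 stood at 5.33, 4.08 and 9.00 FPKM in WT and at 0.281, 0.471 and 0.240 FPKM in ppdnmt2. MSTRG.6949 stood at 3.24, 2.75 and 4.01 FPKM in WT, at 0.0908 and 0.0135 FPKM in ppdnmt2 replicates 1 and 2, and was listed at 0 in replicate 3. The gap at MSTRG.6949, where the lowest WT value was 30.3 times the highest ppdnmt2 value, is the widest of the 35. That ratio divides by 0.0908 FPKM, a value near 0 at unknown read depth, so its size is uncertain. The log2 fold changes were -2.37 for MSTRG.6280 (limma adjusted p = 0.0095) and -2.06 for MSTRG.6949 (limma adjusted p = 0.0045), and the pseudocount of 1 compresses both. With a pseudocount of 0.1 they were -3.82 and -4.71. The call of MSTRG.6280 was lost without ppdnmt2 replicate 1, 2 or 3, with adjusted p-values of 0.095, 0.053 and 0.14, while that of MSTRG.6949 was kept in 12 of 12 alternatives.

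At 5 of the 35 loci a ppdnmt2 library was listed at 0, 4 times in replicate 1, once in replicate 2 and 3 times in replicate 3. MSTRG.15739 stood at 3.42, 2.05 and 1.76 FPKM in WT, was listed at 0 in ppdnmt2 replicate 1, and stood at 0.348 and 0.419 FPKM in replicates 2 and 3 (log2 fold change -1.43, limma adjusted p = 0.092, and -3.08 with a pseudocount of 0.1). At MSTRG.16396, MSTRG.4920 and MSTRG.757 only 1 ppdnmt2 library was above 0. These were replicate 2 at 0.881 FPKM, replicate 2 at 1.24 FPKM and replicate 3 at 0.767 FPKM, where the lowest WT values were 2.41, 2.31 and 1.63 FPKM. The highest ppdnmt2 library sets the gap at every locus, and at these 3 loci it was the only ppdnmt2 library above 0. With unknown depth a 0 does not show that the transcript was absent.

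The WT libraries were far from even at many of the 35 loci. At 14 of the 35 (40%) the highest WT value was at least 2 times the lowest, which held for 7.39% of the 16705 tested loci above 0 in every library. By classes of WT mean, the median coefficient of variation between the WT libraries was 38.2% at the 3 loci of 1 to 2 FPKM, 28.5% at the 18 loci of 2 to 5 FPKM and 36% at the 7 loci of 5 to 10 FPKM. It was 11.2% at the 4 loci of 10 to 20 FPKM and 20% at the 3 loci above. Over all tested loci of the same 5 classes, in that order, it was 21.9%, 16%, 12.3%, 11.5% and 11.5%. The WT libraries of the 35 were thus more uneven than those of tested loci at the same level, except from 10 to 20 FPKM. Between the ppdnmt2 libraries, by classes of ppdnmt2 mean, the median coefficient of variation was 40.7% at the 18 loci under 1 FPKM. It was 11.8% at the 6 loci of 1 to 2 FPKM and 13.5% at the 8 loci of 2 to 5 FPKM. It was 9.67% at the 1 locus of 5 to 10 FPKM and 20.1% at the 2 loci of 10 to 20 FPKM. Tested loci of these 5 classes had 29.7%, 22.1%, 15.1%, 11.6% and 10.9%, in that order. Levels were not matched within a class. These spreads come from the values that chose the loci and were not tested.

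The 14 loci with uneven WT libraries fell into those highest in WT replicate 3, which were 8, and those highest in WT replicate 2, which were 6. None was highest in WT replicate 1. Over all 1235 tested loci with a WT range of at least 2-fold, replicate 1 was the highest at 41.1%, replicate 2 at 28.1% and replicate 3 at 30.8%. The ratio of the lowest WT to the highest ppdnmt2 value, which the high WT library does not enter, had a median of 2.23 at the 14 loci and 1.88 at the other 21. Of the 14, 1 was called by limma, MSTRG.6280, and of the 21, 6 were called. A wide WT range raises the standard error by construction, so these counts are no comparison of effects.

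**Figure D3:**
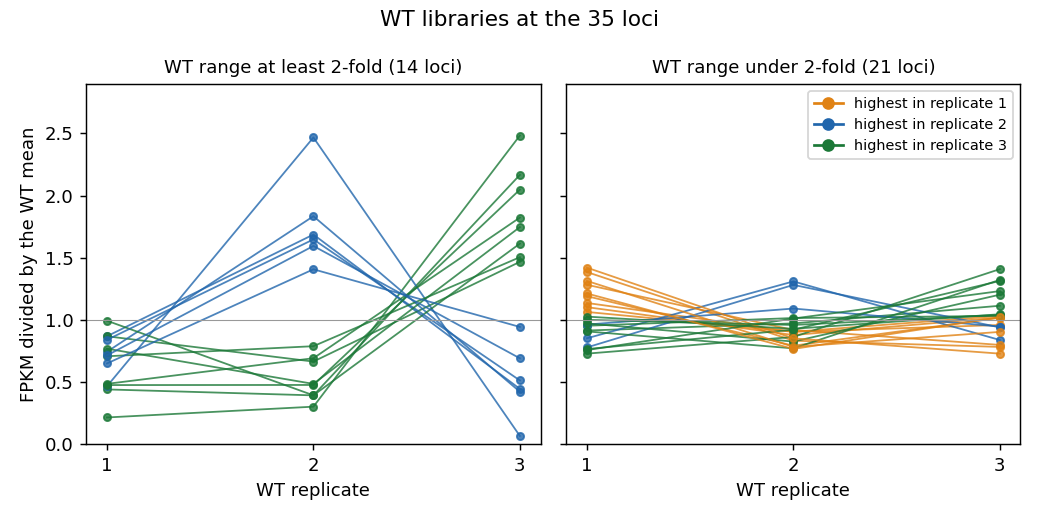
WT values at the 35 loci, each divided by the WT mean of its locus, with the 14 loci whose WT range was at least 2-fold on the left and the other 21 on the right. Points are libraries, lines join the values of 1 locus, and the colour shows which WT replicate was highest. On the left no line peaks at replicate 1, where 8 peak at replicate 3 and 6 at replicate 2.

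The largest excess in WT replicate 3 was at MSTRG.13543 and MSTRG.14234. MSTRG.14234 stood at 38.8, 34.6 and 190.5 FPKM in WT and at 5.41, 4.09 and 1.72 FPKM in ppdnmt2. MSTRG.13543 stood at 2.44, 3.42 and 28.1 FPKM in WT and at 0.0624, 0.139 and 0.107 FPKM in ppdnmt2. In both, WT replicate 3 alone exceeded its 2 partners by over 4 times. That the partners lay at least 1.5 times above every ppdnmt2 library is required by the rule. The lowest WT value was 6.39 times the highest ppdnmt2 value at MSTRG.14234. It was 17.5 times at MSTRG.13543, where the highest ppdnmt2 value was only 0.139 FPKM. Their log2 fold changes were -3.86 (SE 0.6, limma adjusted p = 0.084) and -2.79 (SE 0.68, limma adjusted p = 0.15). Without WT replicate 3 they were -3.08 and -1.82, and both were then called, with limma adjusted p-values of 0.022 and 0.035. With any other library left out neither was called, with limma adjusted p-values of 0.11 to 0.34. With a pseudocount of 0.1 the log2 fold change of MSTRG.13543 was -4.98.

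The same shape at lower levels was seen at MSTRG.9276, MSTRG.6846 and MSTRG.17084, whose identifiers are given because of it. MSTRG.9276 stood at 1.42 FPKM in WT replicates 1 and 2, at 6.11 FPKM in replicate 3, and at 0.350, 0.416 and 0.179 FPKM in ppdnmt2. MSTRG.6846 stood at 2.71, 1.71 and 6.16 FPKM in WT and at 0.586, 0.249 and 0.286 FPKM in ppdnmt2. MSTRG.17084, one of those just inside the threshold, stood at 1.03, 1.47 and 3.86 FPKM in WT and at 0.504, 0.268 and 0.677 FPKM in ppdnmt2. For these 3 loci the means rest largely on WT replicate 3, whereas the gap rests on the lower WT libraries.

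WT replicate 2 was the high library at the second set. MSTRG.13446 was the most uneven of all 35, at 2.55, 13.5 and 0.366 FPKM in WT, a range of 36.9-fold, and at 0.0598, 0.0888 and 0.0510 FPKM in ppdnmt2. MSTRG.4183 stood at 3.47, 8.56 and 1.97 FPKM in WT and at 1.18, 1.17 and 1.26 FPKM in ppdnmt2. MSTRG.2741 stood at 5.61, 10.9 and 2.88 FPKM in WT and at 1.09, 1.85 and 1.44 FPKM in ppdnmt2. At all 3 loci WT replicate 3 was the lowest and replicate 1 lay between, so the order of the WT libraries is the same although the ppdnmt2 libraries are near even at MSTRG.4183 and less so at MSTRG.2741. The limma adjusted p-values were 0.21, 0.18 and 0.15. WT replicate 2 is also the library that stood farthest from the rest over all loci, and its part in these values was not tested beyond leaving it out, when the rule found 48 loci, 32 of the 35 among them.

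A contrasting group had nearly equal WT libraries at low level. MSTRG.11401 stood at 2.18, 2.09 and 2.27 FPKM in WT and at 0.683, 0.846 and 1.02 FPKM in ppdnmt2 (log2 fold change -0.79, limma adjusted p = 0.12). MSTRG.7873 stood at 3.75, 3.99 and 4.06 FPKM in WT and at 1.31, 1.99 and 2.2 FPKM in ppdnmt2 (log2 fold change -0.81, limma adjusted p = 0.11). MSTRG.18657, near the threshold of the rule, stood at 3.41, 3.86 and 3.35 FPKM in WT and at 2.11, 2.2 and 1.79 FPKM in ppdnmt2. Of the 35 loci, MSTRG.7873 and MSTRG.11401 had the smallest WT range, at 1.08 times each.

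The remaining loci were of low to middle level. MSTRG.12993 was the highest of them, at 12.9, 7.74 and 7.28 FPKM in WT and at 2.7, 2.87 and 3.57 FPKM in ppdnmt2 (log2 fold change -1.31, limma adjusted p = 0.083). MSTRG.8547 stood at 5.0, 5.92 and 9.66 FPKM in WT and at 2.77, 2.87 and 2.44 FPKM in ppdnmt2. In both, 1 WT library was set apart upwards, replicate 1 in the first and replicate 3 in the second. MSTRG.18057 and MSTRG.15035, the lowest of the 35 by WT mean, were highest in WT replicate 2, at 2.62 and 2.28 FPKM, where the other WT libraries had 1.05 to 1.53 FPKM and the ppdnmt2 libraries 0.353 to 0.512 FPKM. The last 6 were MSTRG.8587, MSTRG.18173, MSTRG.6495, MSTRG.14700, MSTRG.15807 and MSTRG.13344. Their WT means ran from 1.97 to 3.89 FPKM and their ppdnmt2 means from 0.549 to 1.61 FPKM, with ratios of the lowest WT to the highest ppdnmt2 value of 1.58 to 2.51.

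The order of the libraries within a genotype was not set by the rule, and it was not tested. Replicate 3 was the highest ppdnmt2 library at 16 of the 35 loci (45.7%), replicate 2 at 14 (40%) and replicate 1 at 5 (14.3%). Over all tested loci with a single highest library the shares were 42.2%, 29% and 28.7%. Among WT libraries, replicate 3 was the highest at 17 of the 35 (48.6%) and replicates 1 and 2 at 9 each (25.7%), where over all tested loci the shares were 31.5%, 23% and 45.5%.

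The 35 loci were spread over the whole numbering of the assembled loci, from 757 to 18657 where the highest number is 18882. The median distance between successive numbers was 372. StringTie numbers loci in the order in which it meets them along the genome, so neighbouring numbers usually lie near each other, but positions were not used here. Only 1 pair of the 35 had consecutive numbers, MSTRG.15846 and MSTRG.15847. MSTRG.15846 stood at 3.47, 6.81 and 2.12 FPKM in WT and at 0.526, 1.4 and 0.683 FPKM in ppdnmt2. MSTRG.15847 stood at 7.99, 5.72 and 4.98 FPKM in WT and at 2.41, 2.58 and 2.78 FPKM in ppdnmt2. Both were lower in ppdnmt2, but WT replicate 2 was the highest at the first and WT replicate 1 at the second. Their log2 fold changes were -1.38 and -0.99 (limma adjusted p = 0.14 and 0.092), and with a pseudocount of 0.1 that of MSTRG.15846 was -2.07.

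The rule did not use the loci numbered next to the 35, and 54 of these neighbours, 1 number above or below, had a mean of at least 1 FPKM. Their log2 fold changes ran from -0.94 to 2.55 with a median of -0.1. Of the 54, 35 (64.8%) had a log2 fold change below 0, which 52.3% of all tested loci had. Before adjustment, 8 of the 54 (14.8%) had a limma p under 0.05 in the lower and 6 (11.1%) in the higher direction, beside 8.07% and 10.5% of all tested loci. After adjustment 0 of the 54 were called lower and 1 was called higher. With neighbours up to 2 numbers away, 71 of 113 had a log2 fold change below 0. From 3 to 5 numbers away, the share below 0 ran from 15 of 34 loci, 4 numbers below, to 21 of 31, 3 numbers above. In between were 18 of 31 loci 5 numbers below, 20 of 32 loci 3 below, 18 of 32 loci 4 above and 22 of 34 loci 5 above. Shares like that of the 54 were thus not limited to the nearest numbers, and no difference from all tested loci was tested.

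**Figure D4:**
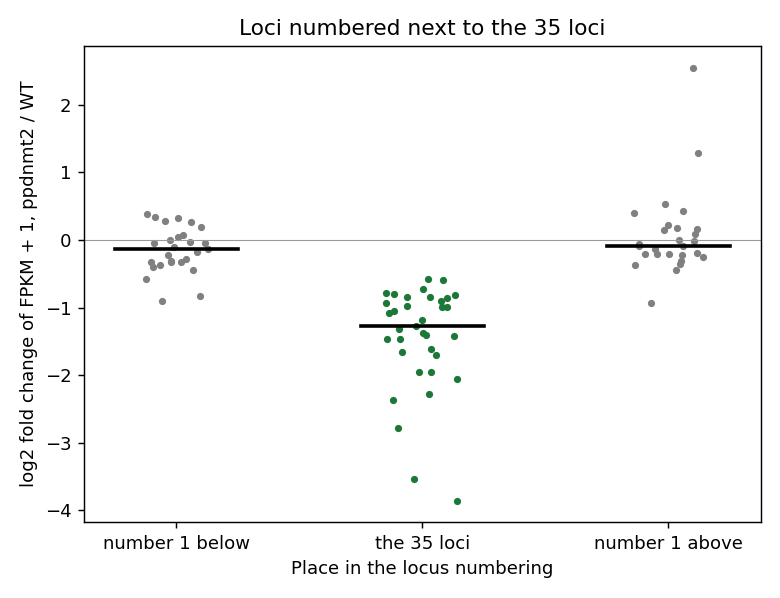
Log2 fold change of FPKM + 1, ppdnmt2 against WT, at the 35 loci in green and at the tested loci numbered 1 below and 1 above them in grey. Points are loci, spread sideways for legibility, and bars are medians. The medians beside the 35 loci are -0.13 and -0.09, and a pair of loci 1 number above stands at 1.29 and 2.55.

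Some neighbours were lower together with their locus. MSTRG.758, next to MSTRG.757, had the lowest log2 fold change, -0.94, but its genotypes overlapped. It stood at 10.5, 3.75 and 11.6 FPKM in WT and at 2.43, 2.37 and 7.40 FPKM in ppdnmt2. The 3 neighbours with the next lowest log2 fold changes are named here because of these values. MSTRG.15845, next to the consecutive pair, stood at 2.05, 4.91 and 0.960 FPKM in WT and at 0.551, 0.963 and 0.751 FPKM in ppdnmt2. Its lowest WT value was below its highest ppdnmt2 value, so the genotypes touched, and it shared the order of WT libraries with MSTRG.15846. MSTRG.5078, next to MSTRG.5079, stood at 5.52, 10.6 and 5.78 FPKM in WT and at 3.40, 4.23 and 2.92 FPKM in ppdnmt2, with a gap between the genotypes. MSTRG.9618, next to MSTRG.9619, stood at 5.40, 6.0 and 5.44 FPKM in WT and at 2.18, 4.68 and 3.79 FPKM in ppdnmt2, also with a gap. None of the 3 was called by limma, with adjusted p-values of 0.24, 0.16 and 0.21.

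Of the neighbours that were higher where their locus was lower, the pair with the largest log2 fold changes is given here. MSTRG.3629 stood at 5.94, 9.13 and 5.84 FPKM in WT and at 3.51, 3.79 and 2.85 FPKM in ppdnmt2. MSTRG.3630 stood at 1.67, 0.684 and 0.687 FPKM in WT and at 3.0, 3.72 and 4.87 FPKM in ppdnmt2 (log2 fold change 1.29, limma adjusted p = 0.11). The other is MSTRG.13849 beside MSTRG.13848, the single neighbour called higher, at 0.101, 0.413 and 0.103 FPKM in WT and at 5.23, 5.75 and 7.23 FPKM in ppdnmt2. In both pairs the 3 values of a genotype lay apart from those of the other at either locus. Whether reads moved between the models of a pair was not tested, as their positions and lengths are unknown here.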

How the data were processed

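Per the submitters' processing notes, the authors used STAR 2.7.8a, Cuffdiff 2.2.1, StringTie, fastp 0.20.1 and other tools, whose roles are not stated. Each locus has 1 value per library in the deposited table, normalized by the authors and read here as FPKM, since its header states no unit. Genome build, annotation and scaling are likewise not given in the sources. RNA was extracted with TRIzol and libraries made with the NEBNext Ultra II kit, per the labels.

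The rule was applied to the values as deposited. Loci at or above a mean of 1 FPKM were fitted with limma 3.58.1 in R 4.3.3 (lmFit, eBayes with trend) on log2(FPKM + 1), without covariates. The fitting step was also tried on simulated data, from which no value is given. Log2 fold changes on this scale understate low loci. Counts were made in Python 3.11.15 with pandas 2.3.3. Same-numbered libraries were not treated as pairs. The members, lists and tests were chosen with earlier results of these data known. Loci were named by WT level (highest 6), by the gap between genotypes (widest 6), by a limma call, by consecutive numbers or by lying at the threshold. The other identifiers were chosen after their values were seen.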

Additional observations from a re-analysis of the deposited data

How the results depend on the processing

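The alternatives for neighbouring loci were chosen after seeing the data. The rule found 133 loci with a looser ratio threshold, 19 with a ratio of 2, 9 with a minimum mean of 5 FPKM and 48 to 99 leaving out 1 library, the most without ppdnmt2 replicate 2, since fewer libraries must then differ. It found 37 loci after quantile normalization and 34 after median-ratio rescaling, 34 of the 35 among them each time. The 7 loci called lower over the whole table became 4 to 9 leaving out 1 library, and 3 to 8 among the 35. The fewest among the 35 came without ppdnmt2 replicate 3, and without ppdnmt2 replicate 1 there were 4. With a replicate block, 31 were called lower, 10 of them among the 35, and 77 higher. The deviations of same-numbered libraries correlated at -0.11, 0.14 and 0.17, and those of differently numbered libraries at -0.21 to 0.10. Whether same-numbered libraries were handled together is not stated and was not tested. Over the 35 loci the median log2 fold change of -1.27 moved to -1.69 with a pseudocount of 0.1, -1.47 for the 9 loci whose mean reached 5 FPKM, and -1.32 to -1.06 leaving out 1 library. For 12 named loci, 151 combinations with an alternative gave no change of sign, 17 lost a call and 3 gained one, and the cause was not tested. The median of the neighbouring loci was -0.13 to -0.07. Depth is unknown and limits values under 1 FPKM.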
